A study of Mus musculus with 96 samples.

Results

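Barcoded leukaemia clones of granulocyte-macrophage progenitor (GMP) origin, 3 in number, are described here: mCHERRY_2_Barcode_307110, mCHERRY_2_Barcode_457303 and mCHERRY_2_Barcode_74010, called clones 307110, 457303 and 74010 below. They are 3 of the 3078 mCherry barcodes in the deposited tables, which list 4675 barcodes in all, and 3 of the 1050 mCherry barcodes above 0 in the GMP pool before transplantation. They were chosen by their measured shares of mCherry reads, over mice that received GMP-derived cells with or without LSK-derived cells: clone 307110 was larger in Ptprca hosts and clones 457303 and 74010 were larger in NSG hosts. Host differences of the 3 clones are therefore given as descriptions with no test, in both kinds of recipient. All 3 names were listed in both deposited tables, and the letters of the barcodes were not used here.

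Fusion of MLL with AF9 turns blood progenitors into self-renewing myeloid leukaemia cells. LSK cells, the fraction that contains haematopoietic stem cells, and GMPs, which are committed to the granulocyte and macrophage lineages, can both be transformed by it. A DNA barcode integrated by a lentivirus is inherited by all daughters of the marked cell, so the share of a barcode among the reads follows the size of that clone. Ptprca names the allele of the CD45 gene that gives the CD45.1 form, carried by a strain with an intact immune system, whereas NSG mice lack T, B and natural killer cells.

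Donor cells came from the marrow of female C57BL/6 mice aged 6 to 8 weeks. LSK cells (Lin-, c-Kit+, Sca-1+) and GMPs (Lin-, c-Kit+, CD34+, high for Fcγ receptor) were sorted, and every group received cells carrying MLL-AF9 from a retrovirus, grown with IL-3, IL-6 and SCF and marked with SPLINTR barcodes, GFP for LSK origin and mCherry for GMP origin. The groups were 4 Ptprca mice (17 to 20) and 4 NSG mice (21 to 24) given a mixture of LSK- and GMP-derived cells, called mixed recipients, and 4 Ptprca mice (5 to 8) and 4 NSG mice (13 to 16) given GMP-derived cells alone. The reference samples were the GMP pool and the mixed pool, each 1 sample taken at baseline. Bone marrow and spleen were read in every mouse except mouse 24, which had a spleen library only. The labels give no age, dose of cells or time of harvest for the recipients. All GMP-derived clones of a pool share 1 culture, so the mice are replicates of transplantation and not of transformation, and p-values measure the spread between mice only.

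Values are the share of a clone among the mCherry reads of a library, in percent, so that a share falls when other mCherry clones grow as well as when the clone itself shrinks. The 31 libraries held 5239254 to 7814019 barcode reads, of which 1562645 to 7341241 were mCherry reads. A clone with 0 reads can hold up to 3 reads of the mCherry total, which for the 15 values at 0 among the 93 library values was at most 0.000125% (lowest limit 4.38e-05%). For the 48 shares of at least 0.01%, the 95% Wilson interval reached at most 10.0% of the value to either side (median 1.23%). Such intervals and limits cover counting error only, because PCR copies of a molecule were counted without molecular identifiers. Of the 31 libraries, 6 stood apart and are named because several values below come from them. The marrow of mouse 6 had 0.958% of its reads in barcode libraries the mouse did not receive, the marrow of mouse 8 had 0.194%, and the spleens of mice 13 and 14 had 0.477% and 0.576%. In the spleens of mice 18 and 7, 1.06% and 2.92% of reads fell in barcodes found in no pool. The tables of the 2 hosts were deposited separately and no label gives a preparation batch, so host and preparation cannot be told apart.

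The names and the pools fitted GMP origin for all 3 clones. Each carries an mCherry name, had at least 418 reads in both pools that contained GMP-derived cells and had 0 reads in the LSK pool. In the 14 libraries of mice given LSK-derived cells alone, where these clones should be absent, clone 307110 reached at most 15 reads (2.08 CPM, counts per 1000000 barcode reads), clone 457303 at most 62 reads (8.06 CPM) and clone 74010 at most 9 reads (1.17 CPM). Values up to these counts in the recipients below are therefore at the level of this background. For clone 457303 they include the 8 reads each in the marrow of mice 17 and 20 and the 16 reads in the spleen of mouse 19. The 66 reads (8.61 CPM) of that clone in the spleen of mouse 23 lie just above it.

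Clone 307110 was a minor clone before transplantation. Among mCherry clones it ranked from 3 to 6 in the spleens of Ptprca mice and from 9 to 19 in their marrow. In the marrow of mixed Ptprca recipients it held 1.03%, 0.773%, 0.764% and 0.274% of mCherry reads (mice 17, 18, 19 and 20), and in their spleens 5.29%, 13.8%, 4.79% and 3.71%. In mixed NSG recipients it held 0.0150%, 0.141% and 7.65e-05% in the marrow of mice 21, 22 and 23, and 0.0133%, 0.00215%, 0.000128% and 0.00208% in the spleens of mice 21 to 24. The hosts did not overlap in either tissue, and the marrow and the spleen library of mouse 23 each held 2 reads of the clone. The choice of the clone favours such a separation, and how many other clones separate likewise was not counted.

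With marrow and spleen averaged per mouse, clone 307110 held 3.81% ± 2.38 in mixed Ptprca recipients and 0.0220% ± 0.0337 in mixed NSG recipients (SD, n = 4 mice each), a 173-fold ratio of means. Mouse 22 alone set most of the NSG mean, which was 0.00545% without it. In limma on log2(CPM of mCherry reads + 10) over the 67 mCherry clones that averaged at least 100 CPM, the difference, Ptprca minus NSG, was 8.75 (SE 1.45), the highest of the 67. The share was higher in 4 of 4 Ptprca mice than in any NSG mouse, a separation that the choice of the clone favours. Over all clones, 24 of the 67 (35.8%) were called at an adjusted p under 0.05, 23 of them higher in Ptprca mice (34.3%) and 1 lower (1.49%), and the median clone differed by 1.82. Centring each mouse on its median tested clone turned that split to 3 higher and 23 lower and moved the median difference to -2.42, and edgeR without TMM called 10 higher and 4 lower. Clone 307110 was at 4.51 after centring and at 7.69 in edgeR without TMM. It was not the highest in that edgeR fit, where 12 clones lay above it, nor in marrow alone, with 15 of 74 above it. Since the host difference chose the clones, nothing is read from its rank or from these shares of calls. Leaving out NSG mouse 23 or 22 gave 7.81 and 9.82, and leaving out any other single mouse gave values between these.

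In the recipients of GMP-derived cells alone the clone was again high in Ptprca and low in NSG mice. Ptprca mice 5, 6, 7 and 8 held 1.07%, 1.97%, 0.847% and 1.52% in marrow and 4.64%, 6.72%, 4.65% and 10.2% in spleen. NSG mice 13, 14, 15 and 16 held 0%, 0.000398%, 0.167% and 0.00272% in marrow and 0.00274%, 0.0114%, 0.00268% and 0.00601% in spleen. The means per mouse were 3.95% ± 1.46 in Ptprca and 0.0241% ± 0.0405 in NSG mice (n = 4 each), and mouse 15 carried most of the NSG mean, which was 0.00387% without it. Of the 88 clones that reached 100 CPM there, 55.7% were called, 47.7% as higher in Ptprca mice and 7.95% as lower. Nothing is read from the clones' own calls here either.

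Beside LSK-derived cells, clone 307110 held shares of mCherry reads that overlapped those without them. Mixed Ptprca recipients averaged 3.81% and Ptprca recipients of GMP-derived cells alone 3.95%, a ratio of 0.965 that was not tested. The tissues differed in this: in marrow the means were 0.71% and 1.35%, a ratio of 0.53, and in spleen 6.90% and 6.54%, a ratio of 1.06. As a share of all barcode reads, LSK-derived ones included, the clone held 2.18% ± 1.40 in mixed Ptprca recipients and 3.94% ± 1.45 in those of GMP-derived cells alone. In Ptprca spleens it ranked from 3 to 6 among mCherry clones, and in Ptprca marrow from 9 to 19.

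Set against the pools, clone 307110 was larger in 8 of 8 Ptprca mice and in 2 of 8 NSG mice. Its share was 100.2-fold to 367-fold that of the mixed pool in mixed Ptprca recipients and 79.8-fold to 169-fold that of the GMP pool in Ptprca recipients of GMP-derived cells alone. Of the NSG mice, 1 of 4 in each group exceeded its pool, mouse 22 by 3.6-fold and mouse 15 by 2.46-fold. The mixed pool held 0.0199% of the clone (418 reads, 95% Wilson interval 0.0181 to 0.0219%), where it ranked 486 of 989 mCherry barcodes above 0, and the GMP pool held 0.0345% (1674 reads, 0.0329 to 0.0362%), rank 392 of 1050. Each pool is 1 sample, so these ratios have no test.

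Clone 307110 was also a spleen-leaning clone in Ptprca mice, a direction that the choice of clones did not name. It held 1.03% ± 0.515 in marrow and 6.72% ± 3.50 in spleen over 8 Ptprca mice, and the spleen was higher in 8 of 8. The ratio of spleen to marrow was 5.13, 17.9, 6.27 and 13.6 in mixed recipients 17 to 20 and 4.35, 3.42, 5.49 and 6.70 in mice 5 to 8. In limma with the mouse as a block, marrow minus spleen was -2.75 on the log2 scale (SE 0.277, adjusted p = 2.30e-07), the lowest of the 101 clones tested. The libraries of this fit also entered the choice of the clone, made with earlier results of these data known. The p-values of its tissue difference are therefore descriptions, and nothing is read from its rank.

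On this scale most called clones of the Ptprca mice leaned the other way. Of the 101, 40 (39.6%) were called, 37 higher in marrow (36.6%) and 3 higher in spleen (2.97%), with a median of 1.41. The other 2 spleen-leaning calls, named after their values were seen, were clone 418436 (-2.59, adjusted p = 0.000281) and clone 283858 (-0.71, adjusted p = 0.000224). Centring each library on its median tested clone left 14 calls, 1 of them higher in marrow and 13 higher in spleen, and edgeR with TMM left 6 calls, 1 and 5, so that the lean of the other clones depends on the scale. Clone 307110 was higher in spleen on each scale, at -4.85 after centring and -4.27 in edgeR with TMM (adjusted p = 1.70e-14 and 0.000246). Without the 4 mice whose libraries stood apart it was -2.72 (adjusted p = 0.00160), while the number of calls dropped to 5.

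In NSG mice the tissue of clone 307110 varied from mouse to mouse. Marrow was higher in 3 of 7 mice and spleen in 4, and the fitted difference was 0.73 (SE 1.13, adjusted p = 0.858). Its 2 highest NSG values were both in marrow, 0.141% in mouse 22 and 0.167% in mouse 15, 65.6-fold and 62.2-fold the spleen of the same mouse. None of the 47 clones tested between NSG tissues was called by limma (0%) or by edgeR, and 4 had an unadjusted p under 0.05 in limma. Whether the tissue difference itself differed between hosts was not tested.

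Clone 457303 showed the opposite host pattern. In mixed Ptprca recipients 17 to 20 it held 0.000201%, 0.00957%, 0.00220% and 0.000206% of mCherry reads in marrow and 0.0146%, 0.0265%, 0.000332% and 0.00259% in spleen. In mixed NSG recipients it held 0.0160%, 2.67% and 0% in the marrow of mice 21, 22 and 23, and 0.359%, 0.593%, 0.00422% and 1.01% in the spleens of mice 21 to 24. By mouse, 3 of the 4 NSG mice were above all 4 Ptprca mice, and mouse 23, with 66 reads in spleen and 0 in marrow, lay among the Ptprca mice.

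The mean share of clone 457303 was 0.00703% ± 0.00787 in mixed Ptprca recipients and 0.707% ± 0.756 in mixed NSG recipients (n = 4 each). Single mice weighed on both means, which were 0.00336% without Ptprca mouse 18 and 0.398% without NSG mouse 22. The fitted difference, Ptprca minus NSG, was -5.02 on the log2 scale (SE 1.81), the lowest of the 67 clones in limma. It ran from -6.96 without mouse 23 to -3.95 without mouse 22. In edgeR without TMM it was -6.52, with 4 clones below it. The clone passed the limit of 100 CPM through the NSG mice, since its Ptprca mean lay below it, and the choice of the clone fixed its direction.

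In recipients of GMP-derived cells alone, Ptprca mice 5 to 8 held 0.0358%, 0.00323%, 0.00390% and 0.208% of clone 457303 in marrow and 0.0155%, 0.00958%, 0.00827% and 0.00210% in spleen. NSG mice 13 to 16 held 6.19%, 1.04%, 0.0464% and 3.65% in marrow and 3.58%, 0.0648%, 1.25% and 2.83% in spleen. The means per mouse were 0.0358% ± 0.0472 in Ptprca and 2.33% ± 2.11 in NSG mice (n = 4 each). Without mouse 8, whose marrow library stood apart, the Ptprca mean was 0.0127%, and without mouse 13 the NSG mean was 1.48%. The marrow of mouse 8 exceeded that of mouse 15, so the hosts overlapped in marrow. They did not overlap in spleen, in data that chose the clone, and how many other clones separate likewise was not counted.

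The average share of clone 457303 over both tissues was lower in mixed recipients in both hosts, though not in each tissue. Mixed Ptprca recipients had 0.196 times the mean of Ptprca recipients of GMP-derived cells alone, and mixed NSG recipients 0.303 times that of their counterparts, with overlapping mice in both hosts and no test. In Ptprca mice the lower average came from the marrow, 0.00304% in mixed recipients and 0.0628% in those of GMP-derived cells alone, where mouse 8 held 0.208%, while the spleens averaged 0.0110% and 0.00886%. It was the largest of the 3 clones in both pools, at 0.318% of the mixed pool (6690 reads, 0.311 to 0.326%, rank 82 of 989) and 0.298% of the GMP pool (14452 reads, 0.293 to 0.303%, rank 89 of 1050). It was below its pool in 8 of 8 Ptprca mice. In NSG mice it was above its pool in 2 of 4 mixed recipients (mice 22 and 24, 5.13-fold and 3.16-fold) and in 4 of 4 recipients of GMP-derived cells alone (1.85-fold to 16.4-fold).

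No tissue difference of clone 457303 was detectable at this spread between mice. In Ptprca mice the fitted marrow minus spleen was -0.05 (SE 0.88, adjusted p = 0.956), with marrow higher in 3 of 8 mice, and in NSG mice it was -0.60 (SE 1.5, adjusted p = 0.900), with marrow higher in 4 of 7. The spread was wide, as in mice 14 and 15: marrow held 1.04% and spleen 0.0648% in mouse 14, while marrow held 0.0464% and spleen 1.25% in mouse 15. The direction in Ptprca mice turned under 8 of 18 alternatives, leaving out mouse 6, 7, 17, 18 or 20 among them (0.07 to 0.47). The clone reached the limit of 100 CPM in the Ptprca fit through mouse 8, whose marrow library stood apart and held 0.208%. Without that mouse the clone was below the limit and was not fitted.

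The 4 highest library values of clone 74010 were all in NSG mice given GMP-derived cells alone. Among mixed Ptprca recipients it was found in 1 of 8 libraries, the spleen of mouse 18, at 0.0119% (534 reads), and that is a library that stood apart for its reads in barcodes of no pool. Among mixed NSG recipients it held 3.11e-05%, 0% and 0.0852% in the marrow of mice 21, 22 and 23, and 0%, 0.00143%, 0.105% and 0% in the spleens of mice 21 to 24. Mouse 23, in which clone 457303 was lowest among the NSG mice, was thus the mixed NSG mouse with the most of clone 74010.

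In mixed recipients the hosts overlapped for clone 74010, at 0.00149% ± 0.00297 in Ptprca and 0.0240% ± 0.0474 in NSG mice (n = 4 each). The fitted log2 difference, Ptprca minus NSG, was -1.15 (SE 1.73), and -5.39 after centring on the median tested clone. The clone entered this fit only through mouse 23: without it the NSG mean was 0.000243%, the clone was below the limit of 100 CPM, and the difference in mean log2 values was 0.43. Without mouse 18 the Ptprca mean was 0%. In 3 of 4 NSG mice no library held more than 53 reads of the clone.

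In recipients of GMP-derived cells alone, Ptprca mice 5 to 8 held 0.000406%, 0.00178%, 0% and 0.000139% of clone 74010 in marrow and 0.00260%, 0.00416%, 0% and 0% in spleen. NSG mice 13 to 16 held 0.0402%, 4.77e-05%, 0.00245% and 2.14% in marrow and 0.350%, 0.188%, 1.71% and 0.0774% in spleen. The means per mouse were 0.00114% ± 0.00141 in Ptprca and 0.564% ± 0.497 in NSG mice (n = 4 each), and the Ptprca mean was 0.000524% without mouse 6. The hosts did not overlap in spleen, in data that chose the clone, and how many other clones separate likewise was not counted. In marrow the hosts did overlap, since 3 reads were found in mouse 14.

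Against its pools, clone 74010 was below in 8 of 8 Ptprca mice, above in 1 of 4 mixed NSG recipients (mouse 23, 1.98-fold) and above in 4 of 4 NSG recipients of GMP-derived cells alone (1.82-fold to 21.5-fold). The mean of mixed NSG recipients was 23.5-fold lower than that of NSG recipients of GMP-derived cells alone, which was not tested, and the ranges met at mouse 23 (0.0951%) and mouse 14 (0.0939%). The pools held nearly the same share, 0.0481% in the mixed pool (1012 reads, 0.0453 to 0.0512%) and 0.0515% in the GMP pool (2498 reads, 0.0495 to 0.0535%). Its ranks there were 345 of 989 and 328 of 1050.

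Clone 74010 was unevenly spread between the tissues of an NSG mouse. In mice 13, 14 and 15 the spleen held more, in mouse 15 by 1.71% to 0.00245%, while in mouse 16 the marrow held 2.14% and the spleen 0.0774%. The fitted marrow minus spleen in NSG mice was -2.33 (SE 1.54, adjusted p = 0.721), with the spleen higher in 5 of 7. In Ptprca mice the clone did not reach 100 CPM, so its tissues were not tested.

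The 3 clones together held 3.82% ± 2.39 of mCherry reads in mixed Ptprca recipients and 0.753% ± 0.754 in mixed NSG recipients, and 3.98% ± 1.49 in Ptprca and 2.92% ± 2.13 in NSG recipients of GMP-derived cells alone (n = 4 mice each). Clones 457303 and 74010 share the direction that chose them. The Pearson correlation of their log2 values was 0.33 over the 16 Ptprca libraries, where clone 74010 was mostly at 0, and 0.07 over the 15 NSG libraries. Clones 307110 and 457303 correlated at 0.21 in Ptprca and 0.04 in NSG libraries. Libraries of 1 mouse share the animal, and all share the pool, so these are descriptions.

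Among 81 clones averaging at least 100 CPM over the 31 libraries, the pair with the profile most like that of clone 307110, by Pearson's r over all libraries, was 10809 and 35245. Within hosts the likeness did not hold throughout: r with clone 307110 was -0.69 and -0.73 over the 16 Ptprca libraries and 0.40 and 0.47 over the 15 NSG libraries. Clones 10809 and 35245 were higher in mixed Ptprca than mixed NSG recipients (7.59 and 7.56 on the log2 scale, and 3.35 and 3.32 after centring), a difference given without a test because it entered their selection. They differed from clone 307110 in tissue, with 0.359% in marrow and 0.0952% in spleen for clone 10809 and 0.321% and 0.0867% for clone 35245 over 8 Ptprca mice. Marrow minus spleen was 1.85 and 1.95, a direction that turned after centring (-0.25 and -0.15). These values too are given without a test, because the same libraries entered the selection of the 2 clones. They also differed in their start: both held more of the GMP pool, 0.760% and 0.751%, than of either Ptprca tissue on average, whereas clone 307110 held less.

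For clone 457303 the most similar profiles were those of clones 896021 and 336132, with r of 0.21 and 0.08 over Ptprca libraries and 0.46 and 0.35 over NSG libraries. Clone 896021 held 0.0897% in marrow and 0.00306% in spleen over Ptprca mice, against 0.532% in marrow and 0.340% in spleen over NSG mice. Its host difference in mixed recipients was -3.71, the lowest after clone 457303, and -7.95 after centring, likewise given without a test. For clone 74010 they were clone 457303 itself and clone 494733, with r of 0.22 over Ptprca and 0.46 over NSG libraries for the second of them. The likeness was weak, at r of 0.44 and 0.43 over all 31 libraries. Clones 74010 and 494733 both reached 0.01% in only 2 libraries.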

How the data were processed

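Barcodes were amplified from genomic DNA per the labels, whose extraction protocol nevertheless describes cells loaded for droplet capture; the DNA preparation is thus unclear. The 96 sample records are PCR duplicates of 48 libraries. The deposited values are CPM, scaled by the authors so that each column sums to 1000000. Per the labels, the authors filtered the barcodes and collapsed the duplicates, by sum or by mean. Bowtie 1.2.2 and R 3.6 were used, per the submitters' processing notes. Each column was a whole multiple of 1 step, taken as 1 read, for 100% of values within 0.01 of a read (whole reads recovered), and 5239254 to 7814019 reads per library result for the 31 libraries used.

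Columns were rescaled to their mCherry barcodes. Clones averaging at least 100 CPM were tested with limma 3.58.1 (trend, log2 of CPM + 10, Benjamini-Hochberg over all clones tested, two-sided, R 4.3.3). Hosts were compared over mice, tissues with the mouse as a block, since the labels give both tissues of an animal the same number. Fold changes on that scale understate low clones. The scripts were tested on simulated data. Host differences of the 3 clones in mixed recipients, planned as limma and exact permutation tests, are given without p-values, because the rule that chose the clones names those columns too. Alternatives were the pseudocount, the minimum, the trend, the deposited CPM, centring, edgeR 4.0.16 on recovered reads with and without TMM, single tissues or groups, no mouse block, each mouse left out and, chosen after seeing the data, leaving out the libraries that stood apart. Besides the 3 clones, the 2 clones most correlated with each were named, plus 2 spleen-leaning calls. The clones and comparisons were chosen with earlier results of these data known. Mice given LSK-derived cells alone served for background only.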

Additional observations from a re-analysis of the deposited data

Results flagged for a closer look

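In 3 of 12 sets of 4 mice, a single mouse stood far from the other 3 in the share of a clone, where chance flags about 1 in 20 sets of normally distributed values. These shares are skewed and hold zeros, so that rate need not apply, and where 3 mice are at 0 the other is flagged at any value. Clone 307110 held 0.0848% of mCherry reads in NSG mouse 15, given GMP-derived cells alone, and at most 0.00589% in the other 3. Clone 74010 held 0.0951% in mixed NSG recipient 23 and at most 0.000713% in the other 3. Clone 74010 held 0.00594% in mixed Ptprca recipient 18 and 0% in the other 3.

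All 3 clones had reads above the limit of a count of 0 in mice that had received LSK-derived cells alone and so should hold none of them. Clone 307110 did so in 3 of 14 libraries, with 2.08 CPM at most in the marrow of NSG mouse 12. Clone 457303 did so in 2 libraries, with 8.06 CPM at most, and clone 74010 in 2, with 1.17 CPM at most, both in the marrow of NSG mouse 11. The source of these reads was not tested.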

How the results depend on the processing

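The host difference of clone 307110 in mixed recipients, given without a test, ran from 4.51 to 10.7 over 21 alternatives. The choice of the clone fixed its direction, so nothing is read from that. Its spleen lean in Ptprca mice kept its call in 22 of 22 (-4.85 to -2.27, adjusted p up to 0.00250). These calls too are descriptions, from libraries that entered the choice of the clone. Of the 67 clones, 24 were called between hosts, against 38 with a minimum of 10 CPM, 5 with 1000 CPM, 11 with no minimum, 14 by edgeR without and 15 with TMM, and 17 to 27 with a mouse left out. The host difference of clone 457303, also without a test, was -5.31 with a pseudocount of 1 CPM, -3.75 in marrow alone, -5.02 with a minimum of 10 CPM, of 1000 CPM, with none or without the trend, and -6.96 to -3.95 with a mouse left out. That of clone 74010 was -5.39 after centring and -1.85 to 0.43 with a mouse left out. Between Ptprca tissues 40 clones were called, against 19 with a minimum of 1000 CPM, 7 with none, 14 after centring, 6 by edgeR with TMM, 4 in mixed recipients alone, 5 without the libraries that stood apart and 33 to 43 with a mouse left out. In the analysis without the paired mice (no replicate block) 37 were called, clone 307110 had an adjusted p of 7.59e-07, and no call of the 3 clones changed. Clone 457303, not called, turned direction there with a pseudocount of 100 CPM (0.23), on deposited CPM (0.092), in recipients of GMP-derived cells alone (1.25) and with a mouse other than mouse 8 left out (-0.24 to 0.47). It was below the limit and not fitted there without mouse 8, with 1000 CPM, in mixed recipients alone or without the libraries that stood apart. In NSG tissues 0 clones were called by limma or edgeR in 21 alternatives (4 of 47 had an unadjusted p under 0.05 in limma, and 0 to 6 in the alternatives). There clone 307110 turned in edgeR without TMM (-0.49), with TMM (-1.11), in recipients of GMP-derived cells alone (-0.11) and with a mouse left out (-0.062 to 1.38), and clone 457303 in recipients of GMP-derived cells alone (0.10) and with a mouse left out (-1.36 to 0.086). Clone 74010 had too few reads for a Ptprca tissue test, or a fitted host difference without mouse 23, with 1000 CPM or on deposited CPM. Beyond the construction of each alternative, the cause was not tested.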
